A study of Mus musculus with 24 samples.

Results

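The comparison of passage 6 with passage 4 took 8 of the 24 samples of the series, the samples of both passages from the 4 lines that were sampled at passages 4, 5 and 6. MC38 is a mouse colorectal cancer cell line of C57BL/6 origin. MC38-MOCK#1 received CRISPR-Cas9 with no target gene, MC38-CMAS KO is a knockout of Cmas, MC38-COSMC KO is a knockout of C1galt1c1 (Cosmc), and in MC38-DKO both genes were targeted. The 4 lines were grown in DMEM with serum and puromycin and were harvested with trypsin at 70-90% confluence. The C1galt1c1 knockout line was sorted in bulk for binding of a lectin and is therefore a population and not a single clone. In every line the passage 4 sample is number 1 and the passage 6 sample is number 3, so passage, time of harvest and sample number cannot be told apart, and there was 1 sample per line and passage. The 4 lines therefore serve as the 4 pairs, and a p-value measures only the spread between these samples. The passage 5 samples and 4 further lines, MC38-WT, MC38-MOCK#2, MC38-FUT4 and MC38-FUT9, were used where stated.

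Values are normalized counts, which are read counts per gene scaled by the authors with 1 factor per library and rounded. Their totals lay between 11048959 and 11608907 in the 8 samples. Depth, estimated from the rounding steps, was 7136187 to 14370810 reads at passage 4 and 9752555 to 13112372 reads at passage 6. MC38-DKO at passage 4 was the shallowest, and there 1 read was worth 1.55 normalized counts. Cmas, the enzyme that activates sialic acid, had 416 and 386 normalized counts at passages 4 and 6 in MC38-MOCK#1 and 350 and 322 in MC38-COSMC KO, against 117 and 126 in MC38-CMAS KO and 142 and 122 in MC38-DKO. C1galt1c1, the chaperone of the T-synthase, had 242 and 251 in MC38-MOCK#1 and 145 and 124 in MC38-COSMC KO, 215 and 152 in MC38-CMAS KO, and 206 and 175 in MC38-DKO. Cmas was thus lower in both lines in which it was targeted, while C1galt1c1 in MC38-DKO stayed above the level of MC38-COSMC KO. The epithelial markers Epcam (0 to 1), Cdh1 (0 to 2), Krt8 (0 to 4), Krt18 and Krt19 (0 to 1 each), Cdx2 (0) and Vil1 (0 to 5) were at or near 0 in all 8 samples. Krt20, of the same list, had 44 and 30 at passages 4 and 6 in MC38-CMAS KO and 0 to 6 in the other lines, while the mesenchymal filament gene Vim had 22406 to 28543. The summed level of 8 leukocyte markers was 54 to 70 at passage 4 and 47 to 69 at passage 6, with Cd68 at 34 to 63 and Ptprc at 0 to 6. That of 4 fibroblast markers was 633 to 1141 and 539 to 924, with Pdgfra at 481 to 716 and Pdgfrb at 39 to 520. For 4 endothelial markers it was 0 to 3 and 1 to 7.

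Of the gene lists examined, that of the interferon-stimulated genes had the median furthest from 0 in each of the 4 lines. Cells make their products after type I interferon or intracellular nucleic acid is sensed. Sensors such as Ddx58 (RIG-I) and Ifih1 (MDA5) lead to interferon production, the interferon receptor signals to the nucleus, and the transcription factors it activates bind a short element in the promoters of antiviral effectors such as Isg15, Rsad2, Ifit1 and the Oas family. Genes of MHC class I antigen presentation belong in part to the same response.

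The promoters of 3 of these effectors are shown because the same element recurs in them. The element was searched as GAAANNGAAA or its reverse complement TTTCNNTTTC, within 250 bases before and 50 after the start of the gene. It was present in 21 of the 35 listed interferon-stimulated genes that had a promoter sequence (60%), and in 3.99% of 27025 genes. Sequences are from RefSeq on GRCm38.p6, 5′ to 3′ along the gene, and capitals mark the matches, which overlap each other in Isg15. A match is a description of the letters and not a measured binding site.
Isg15 (chr4:156200850-156200921, minus strand): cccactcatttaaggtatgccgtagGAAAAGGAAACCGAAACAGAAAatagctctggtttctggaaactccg
Rsad2 (chr12:26456538-26456597, minus strand): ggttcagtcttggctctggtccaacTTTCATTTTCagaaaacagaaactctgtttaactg
Ifit1 (chr19:34640760-34640838, plus strand): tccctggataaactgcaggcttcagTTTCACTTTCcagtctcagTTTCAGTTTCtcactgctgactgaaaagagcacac

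Across all genes, no gene passed the test of passage 6 against passage 4 when the 4 lines were paired. Of 21185 genes tested with limma, 0 had an adjusted p below 0.05 (0.0%), and 1045 had an unadjusted p below 0.05 (4.93%). The smallest adjusted p was 0.76. Single lines are described without a test. Among 10863 genes with a mean of at least 50 normalized counts, 186 were above 2-fold at passage 6 in MC38-MOCK#1 (1.71%) and 73 below 0.5-fold (0.672%). The respective numbers were 109 (1.0%) and 114 (1.05%) in MC38-CMAS KO, 57 (0.525%) and 123 (1.13%) in MC38-COSMC KO, and 121 (1.11%) and 124 (1.14%) in MC38-DKO. Across those genes, the differences of MC38-MOCK#1 correlated negatively with those of MC38-CMAS KO, MC38-COSMC KO and MC38-DKO (Pearson's r of -0.31, -0.26 and -0.22), and those of the knockout lines correlated positively with each other (0.23 for MC38-CMAS KO with MC38-COSMC KO, 0.22 for MC38-CMAS KO with MC38-DKO, and 0.26 for MC38-COSMC KO with MC38-DKO). These correlations are across genes, which are not independent replicates. No pair of lines shares a sample.

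Whether the slope over passages 4, 5 and 6 differed between the lines was tested with an F test in limma on the 12 samples of the 4 lines. Of 22606 genes, 216 differed at an adjusted p below 0.05 (0.955%). In a contrast added after the medians of the gene lists in each line had been seen, the slope of MC38-MOCK#1 lay above the mean slope of the knockout lines for 699 genes (3.09%) and below it for 561 (2.48%). The mean slope of the knockout lines was itself positive for 670 genes (2.96%) and negative for 580 (2.57%), and that of MC38-MOCK#1 for 61 (0.27%) and 17 (0.0752%). Tests of both slopes were also added after the data were seen. The spread in this fit is the distance of the passage 5 sample from the line between the outer samples, so it does not include variation between cultures of 1 line. The calls needed the mean-variance trend of limma: without it 0 genes passed in each of these 4 tests, with 2372, 3717, 3884 and 2295 at an unadjusted p below 0.05. The F test called 0 genes without MC38-MOCK#1, 4 without MC38-CMAS KO, 6 without MC38-COSMC KO and 103 without MC38-DKO. Without MC38-CMAS KO, MC38-COSMC KO or MC38-DKO, the contrast called 428, 369 and 758 genes, the knockout slope 32, 49 and 188, and the slope of MC38-MOCK#1 2 (Tex101 and Il18rap), 1 (Gm10110) and 15. Calls named below carry these limits.

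Interferon-stimulated genes were mostly higher at passage 6 in MC38-MOCK#1 and mostly lower in every knockout line. The median log2 difference of 47 listed genes from passage 4 to passage 6 was 1.33 in MC38-MOCK#1, -1.25 in MC38-CMAS KO, -1.0 in MC38-COSMC KO and -1.21 in MC38-DKO, where the median over all genes was 0.00 in each line. In 39 of the 47 genes the difference was positive in MC38-MOCK#1 and negative in all 3 knockout lines (13.0% of all genes), and in 0 of 47 it was the opposite (11.5% of all genes). The mean slope of the knockout lines was negative at an adjusted p below 0.05 (limma) for 26 of the 47 genes (2.57% of all genes) and positive for 0. The slope of MC38-MOCK#1 exceeded it for 28 genes (3.09% of all genes) and lay below it for 0. This contrast was added after the list medians had been seen, and both slopes after the data were seen. The counts are therefore a description of the split and not separate evidence for it. In MC38-MOCK#1 alone the slope was called for Isg15 and Oasl1 (0.27% of all genes). Without MC38-CMAS KO, MC38-COSMC KO or MC38-DKO, the knockout slope was called for 3, 3 and 7 of the 47 genes, the difference from MC38-MOCK#1 for 13, 13 and 19, and the slope of MC38-MOCK#1 for 0 each time. In bulk RNA, fewer cells that express these genes and less RNA per cell cannot be told apart.

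**Figure D1:**
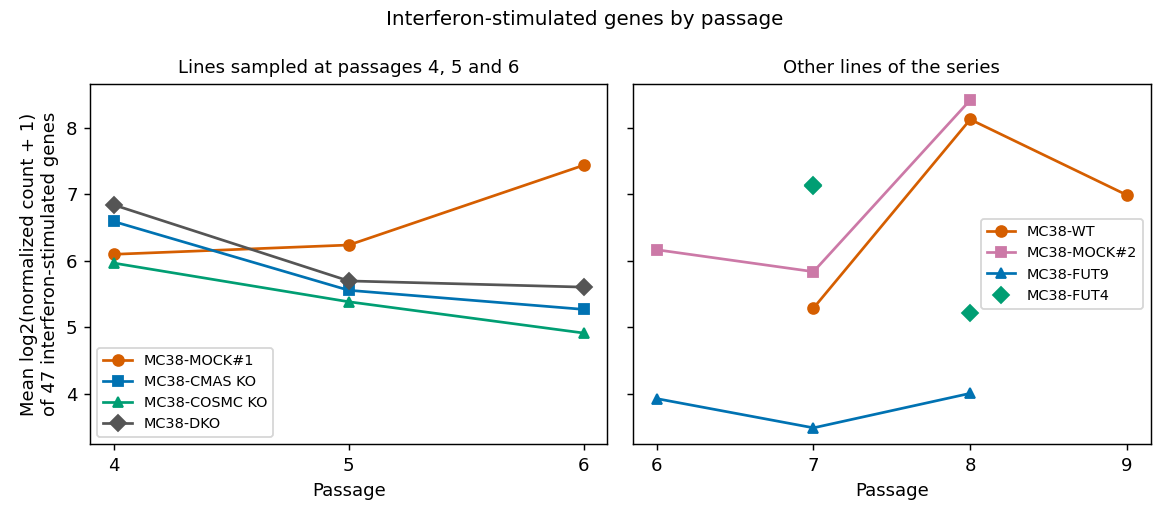
Mean log2(normalized count + 1) of the 47 listed interferon-stimulated genes against passage, 1 point per sample, for the 4 lines sampled at passages 4 to 6 (left) and the 4 other lines (right). MC38-MOCK#1 went from 6.10 to 7.44 and the 3 knockout lines declined, while MC38-WT spanned 5.29 to 8.13, MC38-MOCK#2 5.84 to 8.42 and MC38-FUT4 (2 samples at passage 7, not joined) 5.21 to 7.14.

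The mean log2 level of the 47 genes at passages 4, 5 and 6 was 6.10, 6.24 and 7.44 in MC38-MOCK#1. It was 6.59, 5.56 and 5.27 in MC38-CMAS KO, 5.97, 5.38 and 4.91 in MC38-COSMC KO, and 6.84, 5.70 and 5.60 in MC38-DKO. The increase in MC38-MOCK#1 thus rested on its passage 6 sample, since its passage 5 sample was close to that of passage 4. The decrease in the knockout lines was already present at passage 5. At passage 4, MC38-MOCK#1 lay between the knockout lines, and at passage 6 it was above all of them.

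Isg15, a ubiquitin-like modifier whose promoter with 3 overlapping matches is printed above, lies on the minus strand of chromosome 4 of GRCm38 (156199424 to 156200818). It had 74, 122 and 521 normalized counts at passages 4, 5 and 6 in MC38-MOCK#1, 314, 161 and 70 in MC38-CMAS KO, 113, 51 and 41 in MC38-COSMC KO, and 192, 80 and 67 in MC38-DKO. The passage 6 sample was the highest of MC38-MOCK#1 and the lowest of each knockout line. From passage 4 to 6 it rose by 2.80 ± 0.40 (SE) on the log2 scale in MC38-MOCK#1 (limma adjusted p = 0.0343) and fell by 1.70 ± 0.23 on average in the knockout lines (adjusted p = 0.00531).

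Rsad2, the antiviral enzyme viperin, had 147, 158 and 532 in MC38-MOCK#1, 325, 171 and 59 in MC38-CMAS KO, 117, 51 and 25 in MC38-COSMC KO, and 369, 117 and 65 in MC38-DKO. It fell by 2.37 ± 0.23 in the knockout lines (limma adjusted p = 0.00155), and its slope in MC38-MOCK#1 was 1.85 ± 0.40 (adjusted p = 0.0874). Only its highest value in MC38-MOCK#1 lay outside the range of the knockout lines at passage 4. Oasl1, an inhibitor of Irf7 translation, rose from 212 through 303 to 870 in MC38-MOCK#1, while it fell from 1011 through 498 to 209 in MC38-CMAS KO, from 181 through 87 to 45 in MC38-COSMC KO, and from 401 through 198 to 168 in MC38-DKO. Its slope differed by 3.87 ± 0.31 between MC38-MOCK#1 and the knockout lines (limma adjusted p = 0.00126). Its slope passed on its own in MC38-MOCK#1 (adjusted p = 0.034) and in the knockout lines (adjusted p = 0.001).

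The sensor Ddx58 and the regulator Irf7 went the same way. Ddx58 had 665 and 1391 at passages 4 and 6 in MC38-MOCK#1, against 689 and 370, 602 and 297, and 976 and 461 in MC38-CMAS KO, MC38-COSMC KO and MC38-DKO. Irf7, which drives interferon production, had 13 and 102 in MC38-MOCK#1 against 43 and 15, 37 and 10, and 37 and 5. In both genes the groups of passage 4 and passage 6 overlapped across the 4 lines, since the lines moved in opposite directions. Cxcl10, a chemokine for T cells, had 283 and 682 in MC38-MOCK#1 and 533 and 227, 398 and 168, and 434 and 187 in the knockout lines.

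Averaged over the 4 lines, these movements cancelled in part. The list had 0 of 47 genes called in the paired comparison and a median of -0.60, against -0.01 over all genes. Without MC38-MOCK#1 the median was -1.24, and 40 of the 47 genes had an unadjusted p below 0.05, all lower, as had 17.7% of all genes in either direction. None of these passed the adjusted test with 3 pairs. Only Ifit2 and Ifi27l2a were lower at passage 6 in all 4 lines (5.36% of all genes). Ifit2, which binds RNA and restricts translation of viral RNA, had 199 and 169, 186 and 146, 247 and 200, and 194 and 165 in MC38-MOCK#1, MC38-CMAS KO, MC38-COSMC KO and MC38-DKO. Ifi27l2a was at 4 or less in the 12 samples of the 4 lines.

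**Figure D2:**
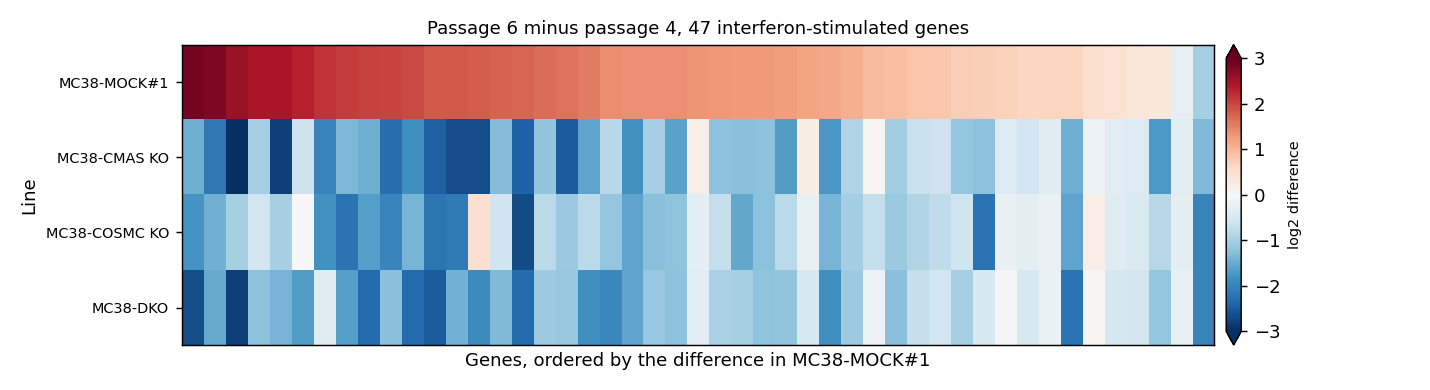
Log2 difference of passage 6 minus passage 4 for each of the 47 interferon-stimulated genes (unlabelled columns, ordered by MC38-MOCK#1) in each line (rows), on the log2(normalized count + 1) scale. Red is higher at passage 6 and blue lower, the colours end at 3 in either direction, and MC38-MOCK#1 was higher for 45 of 47 genes while MC38-CMAS KO, MC38-COSMC KO and MC38-DKO were lower for 44, 44 and 46.

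A step of 2 passages in the lines outside the comparison did not have a single direction either. The median of the 47 genes from the first to the third sample was 1.69 in MC38-WT (passages 7 and 9), 2.41 in MC38-MOCK#2 (passages 6 and 8) and 0.00 in MC38-FUT9 (passages 6 and 8). In these 3 lines, paired, 0 of 21268 genes passed the adjusted test (0.0%) and 2312 had an unadjusted p below 0.05 (10.9%). The intermediate samples did not always lie in between. Isg15 had 121, 949 and 298 in MC38-WT at passages 7, 8 and 9, and 140, 113 and 896 in MC38-MOCK#2 at passages 6, 7 and 8. In MC38-FUT4, whose samples 1 and 3 are both labelled passage 7, it had 531 and 553 at passage 7 and 106 at passage 8, and in MC38-FUT9 it had 9 to 19. The median differences of MC38-WT and MC38-MOCK#2 were thus larger than that of MC38-MOCK#1, and the highest sample was not at the same passage in each line.

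Genes of MHC class I and peptide loading had the same directions at smaller size. The median of 19 genes was 0.41 in MC38-MOCK#1, -0.38 in MC38-CMAS KO, -0.31 in MC38-COSMC KO and -0.27 in MC38-DKO. All 19 were higher at passage 6 in MC38-MOCK#1, and 13 of them were lower in the 3 knockout lines (13.0% of all genes). The slope of MC38-MOCK#1 exceeded that of the knockout lines for 10 of 19 (3.09% of all genes), and the knockout lines fell for 5 (2.57% of all genes), namely B2m, Tap1, Tap2, Psmb8 and Psme2. With MC38-CMAS KO, MC38-COSMC KO or MC38-DKO left out, these counts were 5, 4 and 6 for the difference and 0, 0 and 1 for the knockout slope. Tap1, a subunit of the transporter that carries peptides into the endoplasmic reticulum, had 642, 702 and 1087 in MC38-MOCK#1, 668, 459 and 417 in MC38-CMAS KO, 556, 467 and 374 in MC38-COSMC KO, and 762, 612 and 584 in MC38-DKO. Psmb8, an immunoproteasome subunit, had 330 and 728 at passages 4 and 6 in MC38-MOCK#1 and 337 and 178, 263 and 148, and 396 and 300 in the knockout lines. Tap1 fell by 0.54 ± 0.09 on the log2 scale in the knockout lines (limma adjusted p = 0.0123), and the slope of Psmb8 differed by 1.85 ± 0.26 between MC38-MOCK#1 and the knockout lines (limma adjusted p = 0.00566). The endoplasmic reticulum chaperones Calr and Pdia3 of the same list had log2 differences of 0.08 and 0.02 over the 4 lines.

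Lipid synthesis genes were higher at passage 6 in MC38-MOCK#1, with medians closer to 0 in the knockout lines. Cholesterol is made from acetyl-CoA through mevalonate, under the control of the transcription factor encoded by Srebf2. All 24 listed genes of cholesterol synthesis and uptake were higher at passage 6 in MC38-MOCK#1, with a median of 0.42. The medians of MC38-CMAS KO, MC38-COSMC KO and MC38-DKO were -0.04, -0.13 and -0.09. In MC38-MOCK#1, 6 of 24 rose (0.27% of all genes), among them Mvk, Pmvk, Mvd, Fdft1 and Nsdhl. In the knockout lines 4 fell (2.57% of all genes), namely Mvk, Pmvk, Nsdhl and Insig1, and 1 rose (2.96%). Leaving out MC38-CMAS KO, MC38-COSMC KO or MC38-DKO took the calls in MC38-MOCK#1 to 0, 0 and 1 and those of the knockout slope to 0 each time, while the difference between them was called for 12 of 24 genes with all lines (3.09% of all genes) and for 8, 5 and 7 without 1 of them.

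Nsdhl, an enzyme of the late steps of the pathway, had 526, 695 and 1022 in MC38-MOCK#1, 978, 888 and 800 in MC38-CMAS KO, 888, 775 and 708 in MC38-COSMC KO, and 830, 727 and 691 in MC38-DKO. At passage 4 MC38-MOCK#1 was thus the lowest line, and at passage 6 the highest. The difference in slope was 1.25 ± 0.11 (limma adjusted p = 0.00184).

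Of 12 fatty acid synthesis genes, all were higher in MC38-MOCK#1, with a median of 0.36, and the knockout medians were -0.15, -0.20 and -0.24. The knockout lines fell for Scd2, Fads1, Fads2, Acss2 and Me1, and MC38-MOCK#1 rose for Fads2 and Me1 (2.57% and 0.27% of all genes). Without MC38-CMAS KO, MC38-COSMC KO or MC38-DKO, the 5 calls became 0, 0 and 3, and the 2 calls became 0, 0 and 1. Acss2, which makes acetyl-CoA from acetate, had 940, 1209 and 2021 in MC38-MOCK#1, 1185, 803 and 693 in MC38-CMAS KO, 784, 546 and 476 in MC38-COSMC KO, and 1905, 1184 and 1254 in MC38-DKO. Fasn, the fatty acid synthase, was higher at passage 6 in every line, with 12966 and 15045, 15237 and 16128, 14985 and 18108, and 12965 and 14949, and was not called.

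Among 15 targets of NRF2, the factor of the oxidative stress response, the median was 0.19 in MC38-MOCK#1 and -0.40, -0.25 and -0.19 in the knockout lines. The mean slope of the knockout lines was negative for 8 of 15 at an adjusted p below 0.05 (limma; 2.57% of all genes) and positive for 0 (2.96%). Without MC38-CMAS KO it was negative for 0, without MC38-COSMC KO for 1 and without MC38-DKO for 4, while the difference from MC38-MOCK#1 was called for 8 of 15 with all lines (3.09% of all genes) and for 6, 8 and 8. Slc7a11, the cystine transporter, had 561, 726 and 997 in MC38-MOCK#1, 1654, 1370 and 1199 in MC38-CMAS KO, 1977, 1601 and 1273 in MC38-COSMC KO, and 1068, 686 and 654 in MC38-DKO. Nqo1, a quinone reductase, fell in the knockout lines from 2270 to 1161, from 1461 to 846 and from 1982 to 1268, and had 1020 and 1408 in MC38-MOCK#1. In the hypoxia list, 4 of 17 genes fell in the knockout lines (2.57% of all genes; 0, 0 and 1 without MC38-CMAS KO, MC38-COSMC KO or MC38-DKO), and Pdk1, the kinase that inhibits pyruvate dehydrogenase, rose in MC38-MOCK#1 from 534 through 655 to 966, a call lost without any 1 of the knockout lines.

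**Figure D3:**
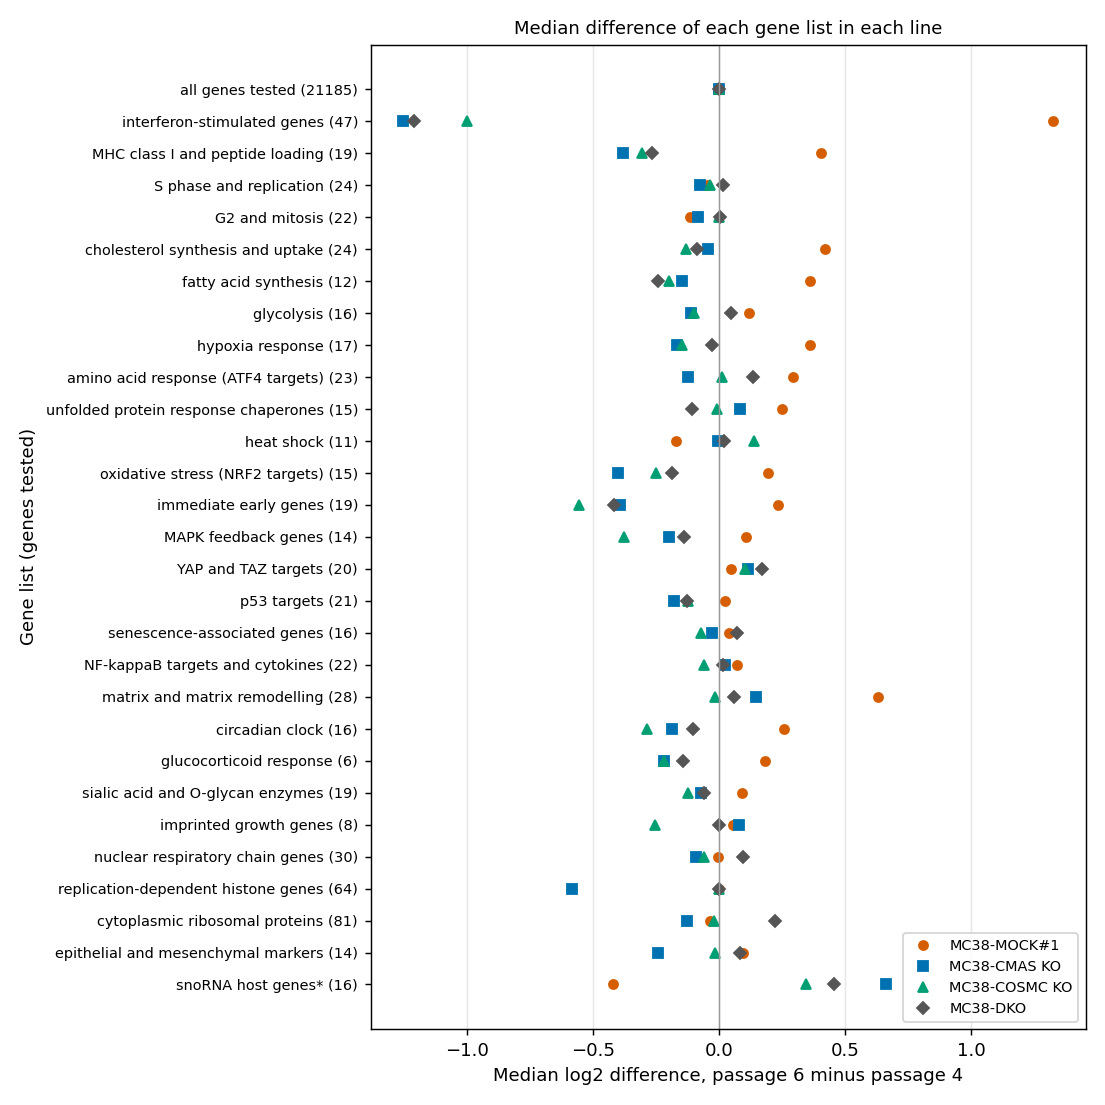
Median log2 difference of passage 6 minus passage 4 for each gene list in each of the 4 lines, with the number of genes tested in parentheses. MC38-MOCK#1 stands to the right of the knockout lines for interferon-stimulated, MHC class I, lipid and matrix genes, and to the left for the snoRNA host genes (*, a list chosen after the values were seen), with the S phase and mitosis lists close to 0 in every line.

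Matrix genes had a median of 0.63 in MC38-MOCK#1 and 0.15, -0.02 and 0.06 in the knockout lines. Of 28 in the paired comparison, 3 were higher in MC38-MOCK#1 and lower in all knockout lines (13.0% of all genes). The opposite held for 3 (11.5% of all genes), and 4 were higher in all 4 lines (4.48% of all genes). Fn1 and Col6a2, described below, are thus not typical of the list. Of 29 in the slope test, 3 rose (2.96% of all genes) and 2 fell (2.57%) in the knockout lines, and 1 rose in MC38-MOCK#1 (0.27%), Fn1 (fibronectin), from 7939 through 9252 to 17323. Each of these counts was 0 when any 1 of the knockout lines was left out. Fn1 had 19373 and 15163, 13816 and 10166, and 8826 and 6022 at passages 4 and 6 in the knockout lines. Col6a2, a chain of collagen VI, had 171 and 554 in MC38-MOCK#1, and fell in the knockout lines from 1107 to 856, from 2333 to 1445 and from 159 to 46. The level of Col6a2 spanned a wider range between the lines than within any of them.

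Neat1 and several snoRNA host RNAs went the opposite way. Neat1, the long noncoding RNA that scaffolds paraspeckles, lies on the minus strand of chromosome 19 (5824708 to 5845478). It fell from 3708 through 2905 to 2087 in MC38-MOCK#1, and rose from 1776 through 2903 to 6082 in MC38-CMAS KO, from 1618 through 2729 to 4062 in MC38-COSMC KO, and from 3010 through 3988 to 5910 in MC38-DKO. The order of the samples followed passage in each line. The difference in slope was -2.19 ± 0.13 (limma adjusted p = 0.00038). Zfas1, a host of small nucleolar RNAs, had 1590, 1498 and 770 in MC38-MOCK#1, 999, 1485 and 2298 in MC38-CMAS KO, 1160, 1626 and 2311 in MC38-COSMC KO, and 1017, 1576 and 2135 in MC38-DKO.

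The 16 snoRNA host genes Gas5, Zfas1 and those named Snhg were listed after these values were seen, so their counts are a description. Their median was -0.42 in MC38-MOCK#1 and 0.66, 0.35 and 0.46 in the knockout lines. The knockout slope was positive for 10 of 16 (2.96% of all genes) and negative for 0, and it was positive for 0, 2 and 6 without MC38-CMAS KO, MC38-COSMC KO or MC38-DKO. The nuclear RNA Malat1 had 3745 and 2822 at passages 4 and 6 in MC38-MOCK#1 and 3725 and 7691, 5168 and 7180, and 3876 and 4025 in the knockout lines, and was not called. Rpph1, the RNA of ribonuclease P, went the other way, with 375 and 611 at passages 4 and 6 in MC38-MOCK#1 and 798 and 351, 946 and 554, and 427 and 203 in the knockout lines. Across genes, Spearman's rho of exonic length with the difference was -0.04 in MC38-MOCK#1 and 0.16, 0.05 and -0.17 in MC38-CMAS KO, MC38-COSMC KO and MC38-DKO.

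**Figure D4:**
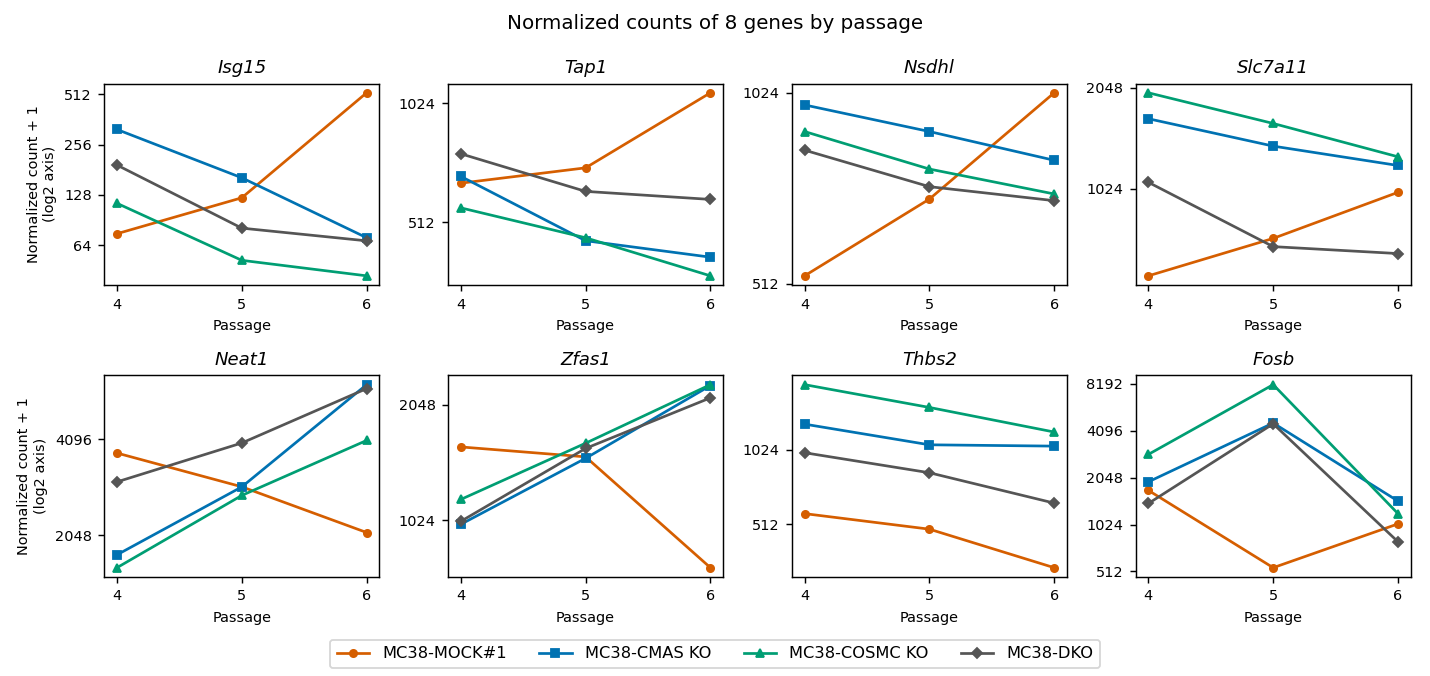
Normalized count + 1 (log2 axis, a separate range per panel) of 8 genes at passages 4, 5 and 6, 1 point per sample and 1 line of points per cell line. Isg15, Tap1, Nsdhl and Slc7a11 go up in MC38-MOCK#1 and down in the knockout lines, Neat1 and Zfas1 go the opposite way, Thbs2 declines in all 4 lines and Fosb departs at passage 5.

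Further genes with the clearest differences in slope included Tex101, a GPI-anchored glycoprotein, which rose from 1066 through 1545 to 2271 in MC38-MOCK#1 and had 1296 and 1200, 1671 and 1518, and 1171 and 1184 in the knockout lines. Cavin3, a component of caveolae, rose from 446 to 775 in MC38-MOCK#1 and had 814 and 424, 715 and 536, and 437 and 443 in the knockout lines. Lower in MC38-MOCK#1 and higher in the knockout lines were Slco4a1, a membrane transporter of organic anions, Col7a1 (collagen VII), Ints5, a subunit of the Integrator complex, and the transcript D930048N14Rik. Slco4a1 fell from 4042 to 2336 in MC38-MOCK#1, and rose from 1480 to 3034, from 2801 to 4187 and from 3473 to 5608 in the knockout lines.

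Passage 6 differed in the same direction from passage 4 in all 4 lines for 950 of the 21185 genes upward (4.48%) and 1136 downward (5.36%). Random signs would agree in all 4 pairs, in 1 direction or the other, with a probability of 0.125 where no difference is 0. The genes named here were chosen from those with the smallest unadjusted p, a mean of at least 50 and 1 sign in all 4 lines. None was called in the paired comparison (adjusted p = 0.86 for each, limma). In the slope fit, the mean knockout slope was called for Thbs2, Irs1, Chac1, Csf1 and Myc (limma adjusted p of 0.00418, 0.00896, 0.00795, 0.00563 and 0.00501). It was not called for Rcor1 (0.32), nor for Fosb, Dusp1, Klf6 and Klf4 (limma adjusted p of 0.59, 0.41, 0.31 and 0.11), which met the same rule. Of the other genes under this rule, it was called for Sppl2b, Pcyt2, Col5a1, Arhgap39, Gm16165, Dclk1, Zdhhc2 and Apol8. It was not called for Gm13216 and Gm9616. Among these genes, the slope of MC38-MOCK#1 was called only for Thbs2 (limma adjusted p = 0.0419). Over passages 4, 5 and 6 the fitted slope of a line equals its difference of passage 6 minus passage 4. These slope calls thus reuse the differences by which the genes were chosen, and are not separate evidence for them. Thbs2, the matrix protein thrombospondin 2, had 563 and 340 at passages 4 and 6 in MC38-MOCK#1, 1296 and 1056 in MC38-CMAS KO, 1872 and 1204 in MC38-COSMC KO, and 993 and 621 in MC38-DKO. The mean log2 difference was -0.58 ± 0.09 (SE, n = 4 pairs). In MC38-WT, MC38-MOCK#2 and MC38-FUT9 the difference of Thbs2 was 0.73, 1.05 and 0.95, the opposite sign.

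Irs1, an adaptor of the insulin receptor, had 1010 and 1280, 1448 and 2012, 1305 and 1693, and 895 and 1105 in MC38-MOCK#1, MC38-CMAS KO, MC38-COSMC KO and MC38-DKO, a log2 difference of 0.37 ± 0.06. Chac1, which degrades glutathione, had 123 and 141 in MC38-MOCK#1 and 111 and 285, 60 and 191, and 93 and 233 in the knockout lines. Its difference over the 4 lines was 1.13 ± 0.24. The growth factor Csf1 and the transcription factor Myc were also higher in each line, with differences of 0.56 ± 0.12 and 0.52 ± 0.12. Both differences were smallest in MC38-MOCK#1, at 0.21 and 0.03. Rcor1, a subunit of a histone demethylase complex, had 4476 and 3156, 3687 and 3019, 3732 and 3190, and 4049 and 3109, a difference of -0.35 ± 0.07, and its passage 5 sample was the highest of each line.

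Immediate early genes are transcribed within minutes of a stimulus. The mean log2 level of the 19 listed genes at passages 4, 5 and 6 was 8.90, 8.33 and 9.34 in MC38-MOCK#1. It was 9.61, 9.83 and 9.21 in MC38-CMAS KO, 9.77, 10.31 and 9.08 in MC38-COSMC KO, and 8.97, 9.51 and 8.59 in MC38-DKO. On average the list was thus lowest at passage 5 in MC38-MOCK#1 and highest at passage 5 in each knockout line. Its median difference from passage 4 to 6 was 0.24 in MC38-MOCK#1 and -0.39, -0.55 and -0.42 in the knockout lines. Of the 19 genes, 8 were higher in MC38-MOCK#1 and lower in all knockout lines (13.0% of all genes). Another 5, among them Fosb, were lower at passage 6 in all 4 lines (5.36% of all genes). In the paired comparison 0 of 19 were called, and 6 had an unadjusted p below 0.05 (limma, 4.93% of all genes). Fosb had 1696, 540 and 1033 in MC38-MOCK#1, 1924, 4591 and 1447 in MC38-CMAS KO, 2887, 8100 and 1201 in MC38-COSMC KO, and 1397, 4538 and 792 in MC38-DKO. Its passage 5 sample was the lowest of MC38-MOCK#1 and the highest of each knockout line. Not every listed gene had this order. In MC38-CMAS KO, Myc had 1747, 1743 and 2710, and Klf4 had 1115, 1101 and 811. Dusp1, a MAP kinase phosphatase listed with the genes of MAPK feedback, had 652, 254 and 492 in MC38-MOCK#1. In MC38-DKO it had 469, 1096 and 301, and both lines had the same order as for Fosb. In MC38-WT, MC38-MOCK#2 and MC38-FUT9 the differences of Fosb from the first to the third sample were 3.03, 2.34 and -0.03.

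Clock genes were also divided between the lines, at smaller size. The 16 genes of the circadian clock had a median of 0.26 in MC38-MOCK#1 and -0.19, -0.29 and -0.10 in the knockout lines, and 8 of them were higher in MC38-MOCK#1 and lower in all knockout lines (13.0% of all genes). In the knockout lines 5 of 16 fell (2.57% of all genes), namely Cry2, Per1, Nr1d1, Nr1d2 and Bhlhe40, and 0 did when any 1 of these lines was left out. Bhlhe40, a transcriptional repressor, had 457, 570 and 747 in MC38-MOCK#1, 698, 552 and 491 in MC38-CMAS KO, 577, 522 and 457 in MC38-COSMC KO, and 736, 622 and 602 in MC38-DKO. The slope of MC38-MOCK#1 exceeded that of the knockout lines (3.09% of all genes) for 6 of 23 ATF4 targets, for 4 of 16 glycolysis genes and for 1 of 14 genes of MAPK feedback. Without MC38-CMAS KO, MC38-COSMC KO or MC38-DKO these were 2, 2 and 6, 0, 0 and 2, and 0 each time.

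The lists of S phase and of mitosis had 0 of 24 and 0 of 22 genes called in any of the tests, and medians between -0.11 and 0.02 in the 4 lines. Of 21 p53 targets, 3 rose (2.96% of all genes) and 4 fell (2.57%) in the knockout lines. The slope of MC38-MOCK#1 was above theirs for 3 (3.09% of all genes) and below for 2 (2.48%). Without MC38-CMAS KO or MC38-COSMC KO 0 p53 targets rose or fell in the knockout lines, and without MC38-DKO 1 rose. The senescence-associated list had a median of 0.04 in MC38-MOCK#1 and -0.03, -0.07 and 0.07 in the knockout lines. Of its 17 genes in the slope test, 1 was called higher (2.96% of all genes) and 2 lower (2.57%) in the knockout lines. Without any 1 knockout line 0 were called. The 81 ribosomal protein genes had medians of -0.04, -0.13, -0.02 and 0.22, the last in MC38-DKO. The enzymes of sialic acid and O-glycan synthesis had medians of 0.09, -0.07, -0.12 and -0.06, with 1 of 19 called lower in the knockout lines (2.57% of all genes). The 64 histone genes tested had a median of -0.58 in MC38-CMAS KO and 0.00 in the other lines.

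The largest differences in single lines were those of genes whose names mark them as pseudogenes or unnamed models. Among the 5 genes with the largest difference in either direction in each line, Scd3 in MC38-DKO was the only one without such a name. Of 882 genes named Gm with a number, or with the suffix ps, 102 to 133 per line were past 2-fold (11.6% to 15.1%), against 0.761% to 1.57% of the 9981 other genes. Gm16165 had 224 and 8 at passages 4 and 6 in MC38-MOCK#1, 5 and 1 in MC38-CMAS KO, 275 and 2 in MC38-COSMC KO, and 319 and 0 in MC38-DKO. How far reads were shared with similar genes was not tested. H2-Q6, chosen after its values were seen as the gene with the smallest p, has a close relative in H2-Q7, so its counts are uncertain. It had 1 and 94, 1 and 27, 1 and 16, and 3 and 83 in the 4 lines, while H2-Q7 had 2 and 5, 2 and 32, 2 and 16, and 0 and 0.

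Over the 12 samples and the 10863 genes, 57.6% of the sum of squares went to line, 11.4% to passage and 31.0% to the rest. Without the genes with pseudogene-like names the shares were 71.5%, 8.34% and 20.2%. For the 47 interferon-stimulated genes they were 42.9%, 16.2% and 40.9%. Noise alone also gives passage a share of the sum of squares, and these shares were not tested.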

How the data were processed

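RNA of MC38 lines was sequenced as single reads from stranded poly(A) libraries. Per the study's methods and the submitters' processing notes, the authors trimmed reads, aligned them to GRCm38 with HISAT2 2.0.4, processed them with SAMtools 0.1.19, counted them with featureCounts of Subread 1.5.0-p3 without reads over several genes, and normalized them with edgeR 3.18.1 (library size and TMM). Because the authors scaled each library and then rounded, the deposited numbers are treated as a score, and no count model was fitted. Mitochondrially encoded genes are listed at 0 in all samples and were not tested.

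Values were tested as log2(value + 1) with limma 3.58.1 in R 4.3.3 (eBayes with trend, Benjamini-Hochberg over all genes tested, threshold 0.05). The paired fit had line as a block and genes with at most 5 zeros among 8 samples. The slope fit had passage as a number within line, 12 samples and at most 9 zeros. The pairs are passages of the same cell line. In simulated data the paired fit called 157 of 200 genes changed 2-fold among 21998, with 5 false calls, and the slope fit 75 of 200 with a 4-fold slope difference among 23461, with 1 false call. The changed genes were drawn from those with a mean of at least 50. In the paired simulation every line had the same change. Recovery of lower genes, or of changes that differ between lines in the paired fit, was not simulated. Depth was estimated from the integers that scaling and rounding skip or repeat. The search step was made finer after it missed 1 of 8 simulated factors, and all 8 were then met. Symbols matched 52403 of 52636 identifiers.

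The members and lists were chosen with earlier results of these data known. Named genes are the targeted genes, the smallest p with a mean of at least 50 and 1 sign in all 4 lines, the largest changes per line, the clearest slope differences in either direction, and members of the lists described. Alternatives were the pseudocount, the filter, the scaling, the eBayes options, the block, the threshold, passage 5, the lines included, and leaving out each line. Some genes are not reported here.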

Additional observations from a re-analysis of the deposited data

Results flagged for a closer look

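The slope over passages differed between the 4 lines for 216 genes (limma F test). Among them, the slope of MC38-MOCK#1 minus that of the knockout lines, on the log2 scale from passage 4 to passage 6, was 3.87 for Oasl1, 1.17 for Tex101, 1.24 for Cavin3, 1.25 for Nsdhl and 1.71 for Rpph1. It was -2.19 for Neat1, -1.56 for Slco4a1, -2.49 for D930048N14Rik, -1.68 for Col7a1 and -1.40 for Ints5.

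In 5 lists the median difference of 1 line stood far from the other three by Dixon's criterion. MC38-MOCK#1 was that line for interferon-stimulated genes (1.33), MHC class I and peptide loading (0.41), cholesterol synthesis and uptake (0.42) and fatty acid synthesis (0.36), and MC38-CMAS KO for histone genes (-0.58). For the histone genes the medians of the other lines were all 0.00, so the criterion would be met at any size of the difference in MC38-CMAS KO. Among named genes, MC38-DKO stood apart for Arhgap39 (0.65) and Dclk1 (-1.72). Of 50 groups of 4 values examined, chance alone flags about 1 in 20.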

How the results depend on the processing

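In the paired comparison, 0 genes were called under each alternative tried but the robust eBayes, which called 1, H2-Q6. With line left out as the block, 0 genes were called, and 640 had an unadjusted p below 0.05. Leaving out 1 line left 0 called, with 681 to 3903 at an unadjusted p below 0.05, the highest without MC38-MOCK#1. In the 3 lines outside, a mean of at least 10 called 27 genes, the robust eBayes 155, and the fit without the block 2, the pseudogenes Nutf2-ps2 and Gm15719. For the F test of slopes, 0 genes were called without a trend, 883 with the robust eBayes, and 0 to 103 when a line was left out, with 0 without MC38-MOCK#1, 4 without MC38-CMAS KO, 6 without MC38-COSMC KO and 103 without MC38-DKO. The fit without a trend also called 0 genes for the contrast of MC38-MOCK#1 with the knockout lines, the mean knockout slope and the slope of MC38-MOCK#1. Leaving out MC38-CMAS KO, MC38-COSMC KO or MC38-DKO called 428, 369 and 758 genes for the contrast, 32, 49 and 188 for the knockout slope, and 2 (Tex101 and Il18rap), 1 (Gm10110) and 15 for the slope of MC38-MOCK#1, with fewer samples and residual degrees of freedom, and the robust eBayes called 378 in the last. Of the 47 interferon-stimulated genes, the contrast then called 13 to 19 and the knockout slope 3 to 7, and without a trend 0, with 40 and 34 at an unadjusted p below 0.05. With a mean of at least 200, the share of genes past 2-fold was 1.2%, 0.858%, 0.689% and 0.955% in MC38-MOCK#1, MC38-CMAS KO, MC38-COSMC KO and MC38-DKO. Other causes were not tested. The contrast and both slopes were added after the data were seen. With 1 sample per line and passage, variation between cultures of 1 line was not measured, and at 1.55 normalized counts per read low genes of MC38-DKO at passage 4 are the least precise.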
